A study of Mus musculus with 18 samples.

Results

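C-type lectin receptors are membrane proteins with which DCs and other myeloid cells bind carbohydrates, glycolipids or material from dead cells. The 10 receptors described here are encoded by *Clec4e*, *Clec4d*, *Clec4n*, *Clec5a*, *Clec7a*, *Clec12a*, *Clec9a*, *Cd209a*, *Clec10a* and *Mrc1*. They were chosen by symbol, and each symbol matched 1 gene, so that they make up 10 of the 62197 genes in the deposited table. The table comes from bulk sequencing of polyadenylated RNA in 18 strand-specific libraries of mouse DCs, which had grown from bone marrow for 10 days in medium with GM-CSF from J558 cells. The cPLA_2_ WT and cPLA_2_ KO labels stand for intact *Pla2g4a*, the gene of the phospholipase cPLA_2_, and for its conditional deletion by an *Itgax*-driven Cre, which acts in cells that switch on this DC promoter. Nonconfined cPLA_2_ WT and cPLA_2_ KO cells were left untreated and taken when the culture ended. Confined cPLA_2_ WT and cPLA_2_ KO cells were held at a height of 3 µm and collected 4 h after confinement. LPS cells, labelled cPLA_2_ WT or cPLA_2_ KO, received 100 ng/ml of the bacterial compound LPS for 30 min, were washed and stayed in the incubator until the following day. Each of these 6 groups has 3 libraries. Neither the age nor the sex of the mice is given in the labels, and nothing in them says that the 3 libraries of a group came from separate animals or cultures, although a figure legend of the study calls the samples biological replicates. The p-values measure the spread between these libraries.

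Some of these receptors signal for activation. Mincle (*Clec4e*), MCL (*Clec4d*) and Dectin-2 (*Clec4n*) couple to the adaptor FcRγ, MDL-1 (*Clec5a*) to DAP12, and Dectin-1 (*Clec7a*) carries a signalling motif of its own, and all lead to the kinase SYK and onward to CARD9. MICL (*Clec12a*) inhibits, whereas the mannose receptor (*Mrc1*), MGL1 (*Clec10a*) and the DC-SIGN relative encoded by *Cd209a* mainly serve uptake of glycosylated cargo, and immature DCs are known for this uptake.

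The libraries held 33027230 to 61300021 reads on genes, a depth at which the spread between libraries limits the precision for most of these receptors more than counting does. Values are normalized counts, that is, gene counts divided by a size factor for each library, and are not scaled for gene length. *Pla2g4a* stood at 697, 686 and 770.4 normalized counts in nonconfined cPLA_2_ WT libraries and at 548, 542 and 533 in nonconfined cPLA_2_ KO libraries. In confined cells it stood at 1369, 1430 and 1321 with the cPLA_2_ WT label and at 923, 871 and 919.5 with the cPLA_2_ KO label. The *Pla2g4a* mRNA was thus lower with the cPLA_2_ KO label in both conditions, with no overlap between libraries. The LPS libraries go against this pattern. *Pla2g4a* stood at 1005, 969 and 967 in those labelled cPLA_2_ WT and at 1065, 1032 and 1028 in those labelled cPLA_2_ KO.

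A Y-linked gene, *Ddx3y*, gives a further check on the source of each library. It stood at 949, 981 and 874 normalized counts in nonconfined cPLA_2_ KO libraries, and at 1036, 920.2 and 948 in confined cPLA_2_ KO libraries. In nonconfined and confined cPLA_2_ WT libraries it reached at most 3.05 and 2.37. *Xist*, which is transcribed from the inactive X chromosome, was present as well, at 12153, 19081 and 14328 in nonconfined and 16980, 24835 and 20600 in confined cPLA_2_ KO libraries. In cPLA_2_ WT libraries it stood at 27953, 33681 and 30681 without and at 22734, 33482 and 29759 with confinement. The cPLA_2_ KO libraries thus hold both mRNA of a Y-linked gene and *Xist*, whereas in the cPLA_2_ WT libraries *Ddx3y* is near 0. Genotype and the donors, with their mix of sexes, therefore cannot be told apart in these groups. In the LPS libraries *Ddx3y* stood at 1271, 0 and 662 with the cPLA_2_ WT label and at 2.12, 1476 and 783 with the cPLA_2_ KO label. Over 12203 genes with at least 20 reads, the closest match of LPS library 2 labelled cPLA_2_ WT was LPS library 1 labelled cPLA_2_ KO, with a chi-square per gene of 5.67. The closest match of LPS library 3 labelled cPLA_2_ WT was LPS library 3 labelled cPLA_2_ KO, at 6.84, and in both pairs the match was mutual. The other 2 had their closest match inside their own label, LPS library 1 labelled cPLA_2_ WT at 14.2 and LPS library 2 labelled cPLA_2_ KO at 10.9. The 12 nonconfined and confined libraries each had their closest match inside their own group, at 4.17 to 9.46. The LPS libraries are therefore named below by their labels, as libraries labelled cPLA_2_ WT or cPLA_2_ KO, and values for LPS are also given with both labels pooled.

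Per kb of exon, the levels of these receptors spread widely in nonconfined cPLA_2_ WT cells. *Clec4n* had the highest level, at 25079 ± 312 normalized counts per kb (SD, n = 3). It was followed by *Clec4d* at 2450 ± 74.6, *Clec5a* at 1159 ± 66.8 and *Clec7a* at 983 ± 25.8 per kb. Next came *Clec12a* at 593 ± 32.5 and *Clec10a* at 541 ± 17.3 per kb, neighbours whose libraries overlap, and *Mrc1* at 495 ± 17.3 per kb. *Clec4e* stood at 200 ± 12.8 and *Cd209a* at 97.5 ± 0.67 per kb. *Clec9a*, a marker of the cDC1 subset, came last at 4.93 ± 0.90 per kb. In confined cPLA_2_ WT cells *Clec4e* moved from rank 8 to rank 3 of the 10 receptors, at 3725 ± 80.2 per kb (SD, n = 3), with no overlap with its neighbours *Clec4d* and *Clec7a*. In confined cPLA_2_ KO cells it took rank 5, at 1159 ± 29.2 per kb (SD, n = 3).

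**Figure D1:**
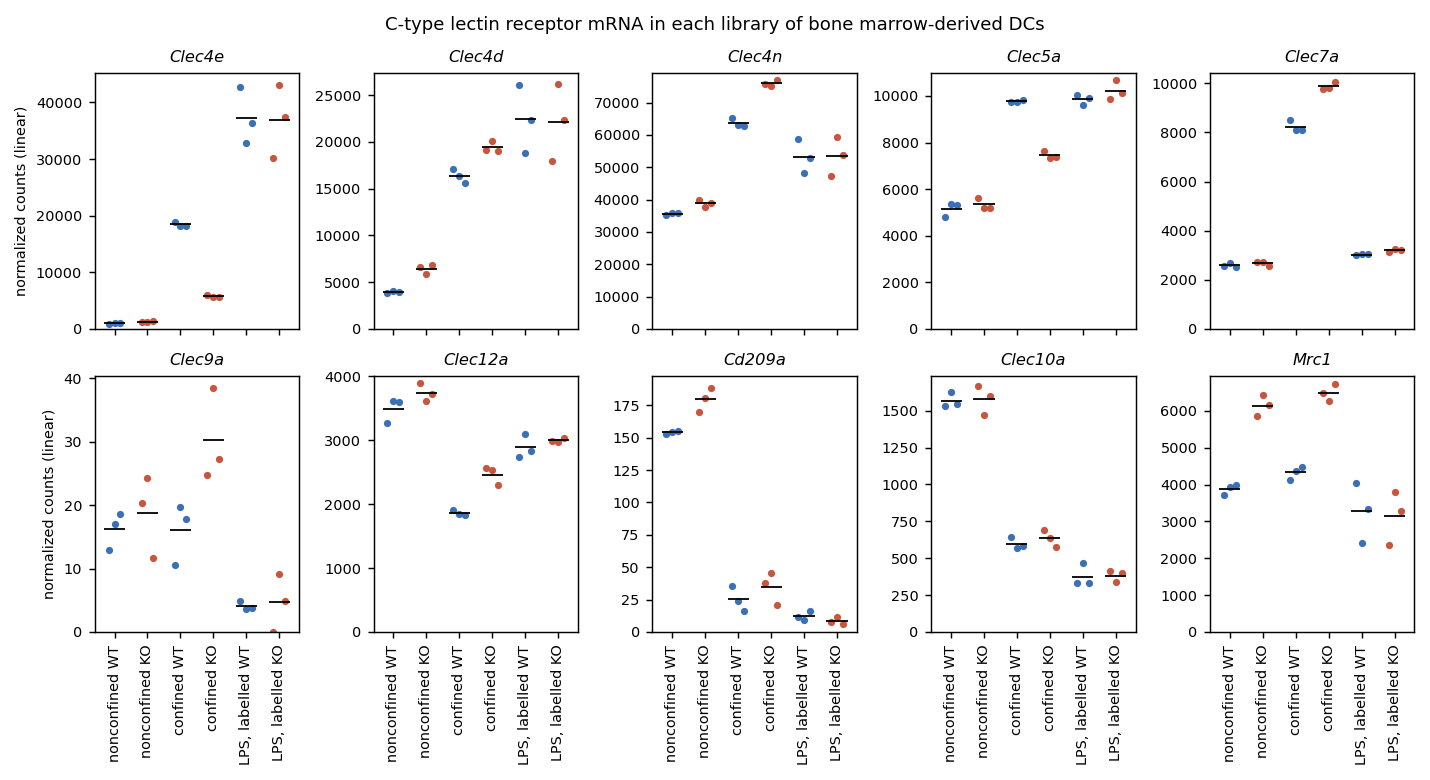
Normalized counts of the 10 C-type lectin receptor genes in each of the 18 libraries, 1 panel per gene with a linear axis from 0. Points are libraries, lines are group means, blue marks libraries labelled cPLA_2_ WT and red those labelled cPLA_2_ KO. *Clec4e* lies between 18264 and 18956 in confined cPLA_2_ WT libraries and between 5648 and 5917 in confined cPLA_2_ KO libraries. *Clec4d* lies between 15626 and 17113 in the former and, higher, between 18975 and 20142 in the latter.

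Mincle, a receptor for mycobacterial glycolipids and for a protein released by dead cells, showed the widest range. *Clec4e* stood at 919.7, 1028 and 1031 normalized counts in nonconfined cPLA_2_ WT libraries and at 18956, 18268 and 18264 in confined cPLA_2_ WT libraries. In cPLA_2_ KO cells it stood at 1323, 1234 and 1352 without and at 5917, 5690 and 5648 with confinement. Every confined library lay above every nonconfined one, and the confined cPLA_2_ KO libraries lay far below the confined cPLA_2_ WT libraries. Confined cPLA_2_ WT cells had 18.6-fold more *Clec4e* than nonconfined ones, a log2 fold change of 4.22 (SE 0.09, limma adjusted p = 2.66e-19). It rose 4.41-fold in cPLA_2_ KO cells, by 2.14 (SE 0.09, limma adjusted p = 1.03e-13). The change in cPLA_2_ KO cells minus that in cPLA_2_ WT cells was -2.08 (SE 0.13, limma adjusted p = 5.85e-11).

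MCL, which partners with Mincle at the cell surface, is encoded next to it. *Clec4d* stood at 3798, 4028 and 3972 normalized counts in nonconfined and at 17113, 16397 and 15626 in confined cPLA_2_ WT libraries. In cPLA_2_ KO libraries it stood at 6591, 5839 and 6841 without and at 19106, 20142 and 18975 with confinement. Here the cPLA_2_ KO libraries were the higher ones in both conditions, again with no overlap. *Clec4d* rose by 2.06 with confinement in cPLA_2_ WT cells (SE 0.11, 4.16-fold, limma adjusted p = 3.78e-13) and by 1.60 in cPLA_2_ KO cells (SE 0.11, 3.03-fold, limma adjusted p = 6.93e-11). The difference between these changes was -0.46 (SE 0.15, limma adjusted p = 0.0266). This call was lost with no filter on low counts (adjusted p = 0.0513), with edgeR (0.0619) and with the same total in each library (-0.27, adjusted p = 0.14). It was also lost without library 1 of nonconfined cPLA_2_ WT (0.061), nonconfined cPLA_2_ KO (0.0563), confined cPLA_2_ WT (0.0634) or confined cPLA_2_ KO cells (0.0523), and without library 3 of nonconfined cPLA_2_ KO (0.0725) or confined cPLA_2_ KO cells (0.0566), over a range of 5.79e-05 to 0.14 for all 23 alternatives.

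Dectin-2, a receptor for fungal mannans, is the third receptor of this gene cluster and was abundant throughout. *Clec4n* ranged from 35101 to 35886 normalized counts in nonconfined cPLA_2_ WT and from 62699 to 65195 in confined cPLA_2_ WT libraries. In cPLA_2_ KO cells it ranged from 37765 to 39970 without and from 75285 to 76990 with confinement. The groups do not overlap, and the highest values of *Clec4n* were those of the confined cPLA_2_ KO libraries. It rose by 0.84 in cPLA_2_ WT (SE 0.07, limma adjusted p = 4.66e-10) and by 0.97 in cPLA_2_ KO cells (SE 0.07, limma adjusted p = 1.06e-10). The difference between the changes, 0.13 (SE 0.09), did not pass the test (limma adjusted p = 0.335), although it did with the same total in each library (0.32, adjusted p = 0.00392; range over the alternatives 0.00392 to 0.517).

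MDL-1 is a receptor of monocytes and neutrophils linked to inflammation. *Clec5a* stood at 4820, 5360 and 5306 normalized counts in nonconfined and at 9734, 9749 and 9808 in confined cPLA_2_ WT libraries. In cPLA_2_ KO libraries it stood at 5614, 5205 and 5209 without and at 7631, 7347 and 7390 with confinement. The nonconfined genotypes overlap, whereas the confined cPLA_2_ KO libraries lie between the nonconfined and the confined cPLA_2_ WT libraries. *Clec5a* rose by 0.92 in cPLA_2_ WT cells (SE 0.05, limma adjusted p = 2.54e-13) and by 0.48 in cPLA_2_ KO cells (SE 0.05, limma adjusted p = 2.39e-08). These changes differed by -0.44 (SE 0.07, limma adjusted p = 2.19e-05), in the same direction as for *Clec4e*.

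Dectin-1 binds β-glucans of fungal walls. *Clec7a* stood at 2580, 2668 and 2534 normalized counts in nonconfined and at 8523, 8084 and 8100 in confined cPLA_2_ WT libraries. The nonconfined cPLA_2_ KO libraries held 2742, 2708 and 2563 and the confined ones 9767, 9825 and 10037. The 3 confined cPLA_2_ KO libraries had the highest *Clec7a* values of all 18. The increase was 1.67 in cPLA_2_ WT cells (SE 0.04, 3.17-fold, limma adjusted p = 1.36e-18) and 1.89 in cPLA_2_ KO cells (SE 0.04, 3.7-fold, limma adjusted p = 9.45e-19). The change was thus larger by 0.22 in cPLA_2_ KO cells (SE 0.06, limma adjusted p = 0.00696), opposite in direction to that for *Clec4e* and *Clec5a*.

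MICL, the inhibitory receptor for uric acid crystals, fell with confinement. *Clec12a* ranged from 3273 to 3616 normalized counts in nonconfined and from 1829 to 1903 in confined cPLA_2_ WT libraries, and from 3606 to 3897 and from 2292 to 2564 in the cPLA_2_ KO libraries. Its log2 fold change was -0.91 in cPLA_2_ WT (SE 0.06, limma adjusted p = 9.26e-12) and -0.60 in cPLA_2_ KO cells (SE 0.06, limma adjusted p = 1.51e-08). The fall was smaller in cPLA_2_ KO cells, with a difference of 0.30 (SE 0.08, limma adjusted p = 0.00672). DNGR-1, which binds actin exposed by dead cells, was near the limit of what was tested. *Clec9a* ranged from 10.6 to 19.7 in the nonconfined and confined cPLA_2_ WT libraries together and reached 38.4 in a confined cPLA_2_ KO library. Neither confinement result for *Clec9a* passed the test, with log2 fold changes of -0.04 (SE 0.60, limma adjusted p = 0.959) and 0.69 (SE 0.60, limma adjusted p = 0.371).

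Among the receptors for uptake, *Cd209a* and *Clec10a* fell with confinement. *Cd209a* stood at 153, 154 and 155 normalized counts in nonconfined and at 35.8, 24.01 and 16.6 in confined cPLA_2_ WT libraries. In cPLA_2_ KO libraries it stood at 170.0, 181 and 188 without and at 37.8, 45.9 and 21.0 with confinement. Its confined libraries thus held far lower counts in both genotypes, and those of the genotypes overlap. The log2 fold change of *Cd209a* was -2.62 in cPLA_2_ WT (SE 0.32, limma adjusted p = 4.28e-07) and -2.40 in cPLA_2_ KO cells (SE 0.32, limma adjusted p = 2.62e-06). *Clec10a*, a receptor for galactose and N-acetylgalactosamine, fell by 1.39 (SE 0.11, limma adjusted p = 5.89e-10) and by 1.32 (SE 0.11, limma adjusted p = 3.14e-09), from a mean of 1567 ± 50.2 to 598 ± 38.9 in cPLA_2_ WT and from 1580 ± 98.0 to 634 ± 56.4 in cPLA_2_ KO cells (SD, n = 3). For neither gene did the changes differ between genotypes by the test, with 0.22 for *Cd209a* (SE 0.45, limma adjusted p = 0.781) and 0.07 for *Clec10a* (SE 0.16, limma adjusted p = 0.788). The close relative *Mgl2* can share reads with *Clec10a*.

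The mannose receptor gene differed by genotype, and its change with confinement did not pass the test. *Mrc1* stood at 3723, 3932 and 3977 normalized counts in nonconfined and at 4132, 4378 and 4474 in confined cPLA_2_ WT libraries. In cPLA_2_ KO libraries it stood at 5847, 6418 and 6152 without and at 6484, 6278 and 6721 with confinement. All 6 cPLA_2_ KO libraries lay above all 6 cPLA_2_ WT libraries of these conditions. The log2 fold change with confinement was 0.16 in cPLA_2_ WT cells (SE 0.14, limma adjusted p = 0.353), although the groups do not overlap, and 0.08 in cPLA_2_ KO cells (SE 0.14, limma adjusted p = 0.666). The first of these passed the test when the 2 compared groups were fitted alone (adjusted p = 0.00354) and when the nonconfined and confined libraries were, an alternative chosen after seeing the data (0.00685; range over the alternatives 0.00354 to 0.695), and it turned to -0.07 with the same total in each library (adjusted p = 0.695).

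**Figure D2:**
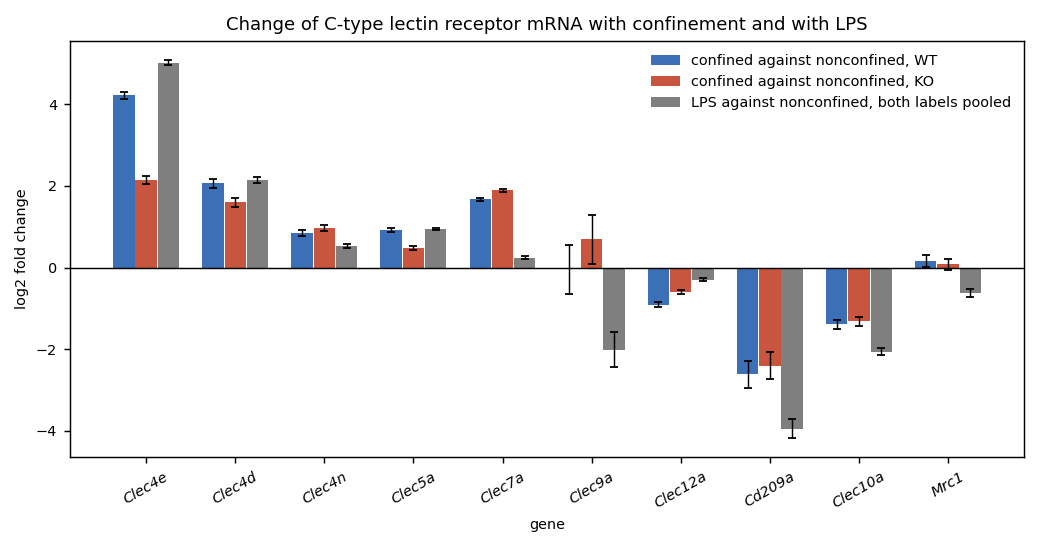
Log2 fold changes of the 10 genes with their standard errors, for confinement in cPLA_2_ WT cells, confinement in cPLA_2_ KO cells and both LPS groups pooled against both nonconfined groups. *Clec4e* has bars of 4.22, 2.14 and 5.02, and *Clec7a* of 1.67, 1.89 and 0.24.

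In the comparison of confined with nonconfined cPLA_2_ WT cells, 5 of the 10 receptors rose and 3 fell, where 28.2% of the 17875 genes tested rose and 28.4% fell. In cPLA_2_ KO cells the counts were also 5 and 3, where 22.8% of all genes rose and 23.4% fell. All 10 receptors passed the filter on low counts. The change with confinement was called larger in cPLA_2_ KO than in cPLA_2_ WT cells for *Clec7a* and *Clec12a*, 2 of the 10, against 10.2% of all genes. It was called smaller, counting sign, for *Clec4e*, *Clec4d* and *Clec5a*, 3 of the 10, against 15.6% of all genes. When every library is set to an equal total, the median over all genes goes from -0.01 to -0.23 (log2) for confinement in cPLA_2_ WT cells and from 0.05 to 0.24 for the difference between genotypes. The share of higher ones among the genes called then goes from 49.8% to 32.6% for confinement in cPLA_2_ WT cells and from 39.5% to 70.7% for the difference between genotypes. The counts of receptors with confinement were 5 and 3 under this scaling too, and those for the difference were 3 larger and 2 smaller. In bulk libraries, fewer cells of a type and less RNA per cell cannot be told apart.

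The comparison of genotypes asks what the label cPLA_2_ KO goes with at rest and under confinement. In nonconfined cells 3 of the 10 receptors were higher with the cPLA_2_ KO label, where 4.78% of all genes were, and 0 were lower by limma, where 4.11% were. At an unadjusted p under 0.05, 3 receptors were found in all, where 22.4% of all genes were, and edgeR and DESeq2 called 0 lower ones. The 3 were *Clec4d* (0.70, SE 0.11, limma adjusted p = 0.000234), *Mrc1* (0.66, SE 0.14, limma adjusted p = 0.0047) and *Clec4e* (0.39, SE 0.09, limma adjusted p = 0.0121), each with no overlap between libraries. The call of *Clec4e* was lost with edgeR (adjusted p = 0.0546) and without library 1 of the cPLA_2_ WT cells (0.0665) or library 1 (0.0518) or 3 (0.0589) of the cPLA_2_ KO cells, over a range of 2.04e-05 to 0.0665. *Clec4n*, at 0.13, was called only without the LPS libraries (adjusted p = 0.0255) or with the 2 groups alone (0.0433), over a range of 0.0255 to 0.525.

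In confined cells 4 receptors were higher with the cPLA_2_ KO label, where 18.8% of all genes were, and 2 were lower, where 20.6% were. The 2 lower ones were *Clec4e*, at -1.69 (SE 0.09, limma adjusted p = 2.94e-12), and *Clec5a*, at -0.39 (SE 0.05, limma adjusted p = 5.86e-07). *Clec4e* thus had opposite differences at rest and under confinement. The higher ones were *Mrc1* (0.59, SE 0.14), *Clec12a* (0.40, SE 0.06), *Clec4n* (0.26, SE 0.07) and *Clec7a* (0.26, SE 0.04), with limma adjusted p-values of 0.00192, 5.54e-06, 0.00343 and 2.44e-05. *Clec4d*, at 0.25 (SE 0.11, limma adjusted p = 0.0717), was called without the LPS libraries (0.000676), in the 2 groups alone (0.000231) and with the same total in each library (0.40, adjusted p = 0.00229), over a range of 0.000231 to 0.217. That scaling moves the median of all genes to 0.19 and the share of higher ones among all genes called from 47.7% to 69.8%, with 5 receptors higher and 2 lower.

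Markers of other myeloid cells moved with genotype. By the study's methods, granulocytes, which do not adhere, are lost from these cultures and semiadherent cells are taken. Of 13 neutrophil markers, 9 were higher and 4 not called with the cPLA_2_ KO label in nonconfined cells, and 12 were higher and 1 not called in confined cells, where 4.78% and 18.8% of all genes were higher. Their summed level was 258558, 263383 and 261572 normalized counts in nonconfined cPLA_2_ WT libraries and 395328, 359339 and 383843 in nonconfined cPLA_2_ KO libraries. In confined libraries it was 173383, 165659 and 163639 with the cPLA_2_ WT label and 362324, 371675 and 357886 with the cPLA_2_ KO label. *S100a9* was the most abundant and no marker of this list was at 0. Of 7 eosinophil markers, led by *Prg2*, 6 were higher and 1 lower in nonconfined and 5 higher and 2 lower in confined cells. The eosinophil sum was 33352, 33225 and 33201 in nonconfined cPLA_2_ WT and 82359, 76319 and 78430 in nonconfined cPLA_2_ KO libraries, and no marker was at 0. In confined libraries it was 9829, 9342 and 9221 with the cPLA_2_ WT label and 24955, 24628 and 25520 with the cPLA_2_ KO label. The part of these cells in the differences of *Mrc1*, *Clec4d* and *Clec5a* between genotypes was not tested.

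Of 9 mast cell and basophil markers, 6 were higher and 3 not called with the cPLA_2_ KO label in nonconfined cells, and 6 were higher and 1 lower in confined cells. Over all genes, 4.78% were higher and 4.11% lower in nonconfined cells, and 18.8% and 20.6% in confined cells. The sum of the 9 markers was 10566, 10605 and 10731 in nonconfined cPLA_2_ WT, 15802, 15304 and 15398 in nonconfined cPLA_2_ KO, 17001, 16343 and 16871 in confined cPLA_2_ WT and 9093, 8782 and 9088 in confined cPLA_2_ KO libraries. *Hdc* alone had means of 735, 1040, 12370 and 1458 in these 4 groups, and the other 8 markers together had means of 9898, 14461, 4369 and 7530. The sum without *Hdc* was thus higher in confined cPLA_2_ KO than in confined cPLA_2_ WT cells and fell with confinement in both, whereas the sum with it rose in cPLA_2_ WT cells. The most abundant marker of this list was *Cpa3* in both nonconfined groups, *Hdc* in confined cPLA_2_ WT and *Prss34* in confined cPLA_2_ KO cells. Of the 9 macrophage markers tested, 4 were higher and 5 not called in nonconfined and 4 higher and 1 lower in confined cPLA_2_ KO cells. With the same total in each library, 7 were higher and 1 lower in confined cells. *Marco* had the largest of these differences, from 156 to 723 in nonconfined (2.21, limma adjusted p = 3.83e-13) and from 552 to 1408 in confined cells (1.35, 1.09e-11). The macrophage sum, led by *Csf1r*, was 54723, 52499 and 53105 in nonconfined cPLA_2_ WT, 56077, 59905 and 58056 in nonconfined cPLA_2_ KO, 50684, 48951 and 49571 in confined cPLA_2_ WT and 54678, 49783 and 52449 in confined cPLA_2_ KO libraries. *Vsig4*, a marker of tissue macrophages, was at 0 in all libraries and *Timd4* had a mean under 10. By the study's methods, macrophages stay stuck to the plate when the cells are taken. The part of such cells in the genotype differences of *Mrc1*, a receptor that macrophages also carry, was not tested.

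Markers of DCs and of other cells moved with confinement too. The 10 DC markers were all detected, with *Cd74* the most abundant, and 8 of them fell and 1 rose in cPLA_2_ WT cells, whereas all 10 fell in cPLA_2_ KO cells, against the shares of all genes given above. Their sum was 439886, 414382 and 419860 normalized counts in nonconfined and 385084, 356934 and 368650 in confined cPLA_2_ WT libraries. In cPLA_2_ KO libraries it was 519083, 490856 and 508639 without and 360887, 346650 and 359607 with confinement. Of 9 cDC1 markers, 3 rose and 5 fell in cPLA_2_ WT and 7 fell and 2 were not called in cPLA_2_ KO cells, and *Cadm1* and *Gcsam* had means under 10. *Xcr1*, among those that rose, was low too, with means of 3.44 in nonconfined and 25.5 in confined cPLA_2_ WT cells. In cPLA_2_ KO cells its means were 3.11 and 2.03. The cDC1 sum, led by *Naaa*, was 17873, 17617 and 17459 in nonconfined and 10596, 10250 and 10252 in confined cPLA_2_ WT libraries, and 20856, 20325 and 20944 and then 10607, 10546 and 10790 in the cPLA_2_ KO libraries. With confinement in cPLA_2_ WT cells, 11 of the 13 neutrophil, 5 of the 7 eosinophil, 7 of the 9 mast cell and basophil, 5 of the 9 macrophage, 2 of the 6 monocyte and 4 of the 5 lymphoid markers tested fell. In cPLA_2_ KO cells 6, 6, 7, 6, 2 and 2 of them did. Over all genes, 28.4% fell with the first label and 23.4% with the second. Of the same lists, 2 mast cell and basophil, 1 eosinophil, 1 macrophage and 1 monocyte marker rose in cPLA_2_ WT cells, and 2 mast cell and basophil, 2 monocyte, 1 neutrophil and 1 macrophage marker in cPLA_2_ KO cells. The monocyte sum, led by *Ly6c2*, was 7558, 7766 and 7639 in nonconfined and 7069, 6534 and 6876 in confined cPLA_2_ WT libraries, with no marker at 0. The lymphoid sum, led by *Cd3g*, was 2380, 2357 and 2342 and then 735, 774 and 669, with *Ncr1* and *Klrb1c* under a mean of 10. The part of these shifts in the fall of *Clec12a*, *Cd209a* and *Clec10a* was not tested. Counting sign, 10 of 13 neutrophil markers had a larger change with confinement in cPLA_2_ KO than in cPLA_2_ WT cells and 1 a smaller one. Of 9 mast cell and basophil markers 4 were larger and 2 smaller, and of 10 DC markers 0 and 6. Of the eosinophil, cDC1, macrophage and monocyte markers 1, 1, 0 and 1 were larger and 1, 3, 2 and 1 smaller. Over all genes, 10.2% were larger and 15.6% smaller. The part of these cells in the receptor differences was not tested.

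LPS gives a reference for how these receptors answer a microbial signal. LPS cells stayed in the incubator until the following day, and *Ddx3y* varies among their libraries as given above. LPS, time and donors therefore cannot be told apart when these libraries are set against the other groups. In the LPS libraries *Clec4e* stood at 42642, 32793 and 36448 normalized counts with the cPLA_2_ WT label and at 30184, 43040 and 37484 with the cPLA_2_ KO label. *Clec4d* stood at 26060, 18832 and 22367 with the cPLA_2_ WT label and at 17917, 26219 and 22326 with the cPLA_2_ KO label. For both genes library 1 labelled cPLA_2_ WT lies close to library 2 labelled cPLA_2_ KO, and library 2 labelled cPLA_2_ WT close to library 1 labelled cPLA_2_ KO. *Mrc1* had the same order, with 4049, 2423 and 3337 against 2368, 3808 and 3283. The eosinophil sum went with it, at 47382, 27450 and 38018 against 27436, 47631 and 38651, and its part in these values was not tested.

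With both labels pooled, *Clec4e* rose 32.4-fold with LPS, by 5.02 (SE 0.07, limma adjusted p = 5.71e-24), and *Clec4d* 4.39-fold, by 2.14 (SE 0.07, limma adjusted p = 1.25e-16). *Clec5a*, at 9618 to 10681 normalized counts in the 6 LPS libraries, rose by 0.94 (SE 0.03, limma adjusted p = 1.2e-16). The uptake receptors fell, with -3.95 for *Cd209a* (SE 0.23, limma adjusted p = 7.78e-13), -2.06 for *Clec10a* (SE 0.08, limma adjusted p = 5.49e-16) and -0.63 for *Mrc1* (SE 0.10, limma adjusted p = 6.47e-06). *Cd209a* reached 15.9 normalized counts at most in an LPS library and *Clec10a* 468. *Clec9a*, at 0 to 9.15 in the LPS libraries, had a log2 fold change of -2.01 (SE 0.43, limma adjusted p = 0.000248), and *Clec12a*, at 2735 to 3102, one of -0.30 (SE 0.04, limma adjusted p = 8.45e-07). In all 5 receptors were higher, where 37.2% of all genes were, and 5 were lower, where 34.3% were. *Clec4n*, at 0.52 (SE 0.05, limma adjusted p = 1.64e-09), and *Clec7a*, at 0.24 (SE 0.03, limma adjusted p = 1.7e-07), complete the higher ones.

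By the labels, 5 receptors rose and 4 fell with LPS in libraries labelled cPLA_2_ WT, where 33.4% and 29.4% of all genes did. In those labelled cPLA_2_ KO 5 rose and 5 fell, where 33.4% and 30.1% did. The receptor that differed in call, *Mrc1*, was at -0.28 with the cPLA_2_ WT label (SE 0.14, limma adjusted p = 0.0905) and at -0.99 with the cPLA_2_ KO label (SE 0.14, limma adjusted p = 2.26e-06). Without library 1 labelled cPLA_2_ WT it was called with the cPLA_2_ WT label too, at -0.45 (adjusted p = 0.00579), whereas without library 2 it came to -0.08 (0.61). The same total in each library gave -0.79 (2.57e-05). The difference of -0.71 between the labels did not pass the test (SE 0.20, limma adjusted p = 0.085). With the same total in each library the median of all genes goes to -0.48 and -0.45, and the share of higher ones among the genes called falls from 53.1% to 25.3% and from 52.6% to 26%. Under this scaling *Clec7a* was lower with LPS, at -0.29 (adjusted p = 1.31e-06) and -0.22 (4.79e-05), yet 0.19 and 0.24 above the shifted median. *Clec4n* came to 0.06 (adjusted p = 0.332) and -0.02 (0.743), which is 0.54 and 0.43 above that median, and 3 receptors were higher and 6 lower with either label.

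Between the labels, no gene was called different in LPS libraries. For the receptors and for all genes alike the count was 0 by limma, 0% of those tested, and 0 by edgeR and by DESeq2, with 890 genes but 0 receptors at an unadjusted p under 0.05. The change with LPS was called smaller with the cPLA_2_ KO than with the cPLA_2_ WT label for 1 receptor, *Clec4d*, where 0.962% of all genes were, and larger for 0 by limma, where 0.313% were. edgeR and DESeq2 also called 0 larger ones, and 3 receptors had an unadjusted p under 0.05 in either direction, as did 12.5% of all genes. The difference for *Clec4d* was -0.73 (SE 0.15, limma adjusted p = 0.0141), and its values overlap between labels in the LPS libraries but not in the nonconfined ones. *Clec4d* differed between the labels by 0.70 in nonconfined and by -0.02 in LPS libraries. Nearly all of the -0.73 is thus the nonconfined difference with its sign turned. edgeR (adjusted p = 0.0769), the compared groups alone (0.0829) and leaving out library 3 of nonconfined cPLA_2_ KO cells (-0.68, 0.0594) ended this call. Without LPS library 2 labelled cPLA_2_ WT, *Clec4e* (-0.50, adjusted p = 0.0372) and *Mrc1* (-0.91, 0.00248) were called as well, and likewise without LPS library 2 labelled cPLA_2_ KO (-0.53, 0.0176 and -0.86, 0.0133). By limma, 6 of 7 eosinophil, 7 of 13 neutrophil and 3 of 9 mast cell and basophil markers also had a smaller change with the cPLA_2_ KO label. Of these lists, 1 eosinophil marker had a larger one. A smaller change was also called for 1 DC, 1 macrophage and 1 monocyte marker. The part of these cells in the difference of *Clec4d* was not tested.

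Confined cPLA_2_ WT cells and LPS libraries labelled cPLA_2_ WT differ in which receptors they favour. The confined cells were taken 4 h after confinement and the LPS cells on the following day. *Ddx3y* was at most 2.37 in the former and at 1271 and 662 in LPS libraries 1 and 3 labelled cPLA_2_ WT. Treatment, time and donors cannot be told apart in this comparison. *Clec7a* stood at 2993, 3043 and 3043 normalized counts in the LPS libraries labelled cPLA_2_ WT and was 2.72-fold higher in confined cPLA_2_ WT cells, by 1.44 (SE 0.04, limma adjusted p = 5.54e-17). *Clec4e* was 2-fold lower in confined cells than in these LPS libraries (SE 0.09 on the log2 scale, limma adjusted p = 1.3e-08) and *Clec12a* was at -0.63 (SE 0.06, limma adjusted p = 5.29e-09). *Clec5a* was at -0.01 (SE 0.05, limma adjusted p = 0.829), with overlapping libraries. In all 6 receptors were higher in confined cells, where 21.6% of all genes were, and 3 were lower, where 27.2% were. Here 9 of 10 DC, 11 of 13 neutrophil, 7 of 9 mast cell and basophil and 5 of 7 eosinophil markers were lower. Of these lists 0, 1, 1 and 2 were higher. Of the cDC1, macrophage, monocyte and lymphoid markers tested, 4, 6, 3 and 3 were lower and 2, 2, 2 and 1 higher. With the same total in each library 3, 2, 2 and 3 of these were lower. The part of these shifts in the receptor differences was not tested. Against both LPS groups pooled the receptor values were 1.40 for *Clec7a*, -0.99 for *Clec4e*, -0.66 for *Clec12a* and -0.04 for *Clec5a*.

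Several of the calls against the LPS libraries labelled cPLA_2_ WT hang on single libraries. *Clec9a* (1.71, limma adjusted p = 0.0236) was not called without LPS library 2 (0.0535) or 3 (0.0576), without confined library 2 (0.0775) or 3 (0.0657), or with no filter (0.0546). *Cd209a* (0.98, limma adjusted p = 0.015) was not called without LPS library 2 (0.81, 0.0651) or confined library 1 (0.71, 0.096), or in the 2 groups alone (0.0706). *Mrc1* (0.43, limma adjusted p = 0.0132) was not called without LPS library 2 (0.23, 0.118), and without that library 3 receptors in all were higher. With the same total in each library the median of all genes moves to 0.27 and the share of higher ones among the genes called from 44.2% to 75.1%. *Clec4d*, at -0.44 (limma adjusted p = 0.0015), was then not called (-0.15, adjusted p = 0.204), *Clec5a* came to 0.27 (1.55e-05), and 7 receptors were higher and 2 lower. Against both LPS groups pooled, *Clec9a* (1.89, SE 0.52, limma adjusted p = 0.00428), *Cd209a* (1.23, SE 0.28, 0.000775), *Mrc1* (0.46, SE 0.12, 0.00287) and *Clec4d* (-0.43, SE 0.09, 0.000425) were all called.

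Other C-type lectin receptors went both ways. Of 27 listed, 18 were tested, and in cPLA_2_ WT cells 5 rose and 9 fell with confinement, where 28.2% and 28.4% of all genes did, with a median log2 fold change of -0.65 against -0.01 for all genes. In cPLA_2_ KO cells 4 rose and 9 fell, where 22.8% and 23.4% of all genes did, with a median of -0.44 against 0.01. *Olr1*, which encodes the receptor LOX-1 for oxidized lipoproteins, went from 259 ± 8.32 to 3301 ± 72.1 normalized counts in cPLA_2_ WT cells (SD, n = 3), by 3.67 (limma adjusted p = 2.36e-16). It also rose in cPLA_2_ KO cells, from 229 ± 64.3 to 1381 ± 33.5 (SD, n = 3), and the change was smaller there, by -1.04 (limma adjusted p = 8.37e-05). *Cd207*, the langerin gene of Langerhans cells, shared the pattern of *Clec4e* with confinement, with 712 ± 19.8 and 5514 ± 92.4 in cPLA_2_ WT and 1002 ± 68.0 and 2586 ± 60.2 in cPLA_2_ KO cells (SD, n = 3) and a difference of -1.58 (limma adjusted p = 2.92e-06). It also rose with LPS, by 1.55 with the cPLA_2_ WT label and 1.07 with the cPLA_2_ KO label (limma adjusted p = 4e-09 and 1.07e-06), to means of 2118 and 2157, below that of confined cPLA_2_ WT cells. *Cd209c* fell like its relative *Cd209a*, with -2.02 and -1.57 with confinement and -3.40 and -3.02 with LPS in libraries labelled cPLA_2_ WT and cPLA_2_ KO (limma adjusted p at most 2.32e-10). *Mgl2* fell like *Clec10a*, by 1.08 in each genotype with confinement (limma adjusted p = 2.91e-11 and 8.4e-11). *Asgr2*, abundant at 6810 in nonconfined cPLA_2_ WT and 6614 in nonconfined cPLA_2_ KO cells, fell to 2169 and 1920 with confinement (-1.65 and -1.78, limma adjusted p = 5.17e-18 and 9.99e-18). With LPS 6 of the 18 rose and 7 fell with the cPLA_2_ WT label, where 33.4% and 29.4% of all genes did, and 6 rose and 6 fell with the cPLA_2_ KO label, where 33.4% and 30.1% did, but with the same total in each library 11 and 10 fell. Between genotypes 6 were higher with the cPLA_2_ KO label and 12 not called in nonconfined cells, where 4.78% of all genes were higher, and 3 were higher, 6 lower and 9 not called in confined cells, where 18.8% were higher and 20.6% lower.

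The signalling genes downstream of these receptors did not move one way. Of 17 genes for SYK and CARD9 signalling, 10 rose and 5 fell with confinement in cPLA_2_ WT cells, where 28.2% and 28.4% of all genes did, with a median of 0.23. In cPLA_2_ KO cells 10 rose and 4 fell, where 22.8% and 23.4% did, with a median of 0.16. With the same total in each library 7 and 9 rose, and *Fcer1g*, the gene of the FcRγ adaptor, turned from 0.13 to -0.09 in cPLA_2_ WT cells. *Src*, a kinase gene, went from 268 ± 11.7 to 2053 ± 75.6 normalized counts in cPLA_2_ WT and from 265 ± 19.8 to 603 ± 47.4 in cPLA_2_ KO cells (SD, n = 3), and the changes differed by -1.75 (limma adjusted p = 9.51e-12). *Syk* rose by 1.13 in cPLA_2_ WT and by 0.70 in cPLA_2_ KO cells, with a difference of -0.43 (limma adjusted p = 0.00079), and *Malt1* rose by 1.34 and 0.73, with -0.61 (limma adjusted p = 2.57e-05). *Card9* itself fell, from 8354 ± 385 to 3011 ± 248 in cPLA_2_ WT and from 9879 ± 562 to 4913 ± 169 in cPLA_2_ KO cells (SD, n = 3). Its log2 fold changes were -1.47 and -1.01, with a difference of 0.47 (limma adjusted p = 0.00247). With LPS, 11 of the 17 rose and 3 fell with the cPLA_2_ WT label, where 33.4% and 29.4% of all genes did, whereas with the same total 6 rose and 7 fell. With the cPLA_2_ KO label 9 rose and 4 fell, where 33.4% and 30.1% did, and with the same total 6 rose and 8 fell.

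Across the 18 libraries the receptors fall into sets with like patterns, described by Pearson's r of log2 values, where points share groups that stand apart, so that r describes the pattern over groups. *Clec4e* had an r of 0.99 with *Clec5a*, 0.91 with *Clec4d*, 0.25 with *Clec7a* and -0.97 with *Clec10a*. *Clec4n* and *Clec7a* had an r of 0.87, and *Cd209a* and *Clec10a* one of 0.96. Among 10553 other genes, those most like *Clec4e* were *Slc15a3* (0.998) and *Psmb6* (0.997), and those most like *Clec5a* were *Il1rn* (0.994) and *Zfand5* (0.993). For *Clec4d* they were *Il36g* (0.994) and *Blvrb* (0.991), for *Clec4n* *Atp6ap2* (0.986) and *Niban2* (0.984), and for *Clec7a* *Mmp19* (0.99) and *Mindy1* (0.986). *Clec12a* was most like *Myb* (0.975) and *Cpa3* (0.972), genes of progenitors and mast cells. *Clec10a* was most like *Mgl2* (0.993) and *Adora3 // Tmigd3* (0.991). *Mrc1* was most like *Fam234a* (0.97) and *Klrb1b* (0.969), *Cd209a* like *Pdlim2* (0.98) and *Ppm1g* (0.979), and *Clec9a* like *Pgap1* (0.928) and *Abhd4* (0.925).

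Of the 10 genes, 7 lie on chromosome 6. In GRCm39 coordinates of the table, *Clec4n* (GSMG0045021) at chr6:123206802-123223983, *Clec4d* (GSMG0045022) at chr6:123239066-123252227 and *Clec4e* (GSMG0047083) at chr6:123258747-123266830 lie side by side, the last on the opposite strand. *Clec12a* (GSMG0045557) at chr6:129327207-129342266, *Clec9a* (GSMG0045559) at chr6:129385824-129401727 and *Clec7a* (GSMG0047395) at chr6:129438554-129449748 form another group, and *Clec5a* (GSMG0046032) lies apart at chr6:40551832-40562756. *Mrc1* (GSMG0028900) is at chr2:14234225-14336838, *Cd209a* (GSMG0054453) at chr8:3793395-3798984 and *Clec10a* (GSMG0007649) at chr11:70057449-70061662. Neighbours did not share a direction in the second group, where *Clec12a* fell and *Clec7a* rose with confinement. In the first group all 3 genes rose. For *Clec4d* and *Clec4e*, the neighbours with the larger changes, the 250 bases before the canonical transcript start are shown, 5′ to 3′ on the gene's strand, with motif matches in capitals.
*Clec4d*, chr6:123238826-123239075, plus strand: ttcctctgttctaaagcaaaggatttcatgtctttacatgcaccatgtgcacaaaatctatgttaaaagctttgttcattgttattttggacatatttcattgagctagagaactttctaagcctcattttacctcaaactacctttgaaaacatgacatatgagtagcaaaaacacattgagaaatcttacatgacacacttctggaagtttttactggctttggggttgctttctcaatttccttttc
*Clec4e*, chr6:123266830-123267079, minus strand: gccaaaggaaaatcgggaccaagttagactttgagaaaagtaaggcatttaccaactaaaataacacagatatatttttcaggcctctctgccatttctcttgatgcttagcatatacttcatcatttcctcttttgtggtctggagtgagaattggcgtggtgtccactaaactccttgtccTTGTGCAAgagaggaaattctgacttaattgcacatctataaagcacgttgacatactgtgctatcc

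The motifs searched on both strands of such windows of 9 of the receptors, with 1 window left out of the search, were GGNNNTTCC (NF-κB-like), TTGCNNAA (C/EBP-like), TGANTCA (AP-1-like), TTCNNNGAA (GAS-like) and GAGGAAGT (PU.1-like). Among 21770 windows of protein-coding genes they occur in 15.8%, 9.34%, 6.17%, 7.7% and 2.08%. *Clec4e* holds TTGTGCAA, a C/EBP-like match starting 67 bases before the start. *Clec10a* holds GAGGAAGT 152 bases before it. The other 7 windows, that of *Clec4d* among them, hold none of these letters, and a match describes letters only.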

How the data were processed

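The authors mapped reads to mm39 with STAR 2.7.5a, estimated gene expression on Mouse FAST DB (featureCounts 1.5.0) and deposited the signal of each gene, that is, counts over the library's DESeq2 size factor. Divided by a step fitted to each library's own values, 100% of the values are whole numbers within 1e-06, and these were taken as reads. The protocol text mentions LPS for every sample, and groups follow the titles and treatment entries. The values were tested as log2(normalized count + 1) in limma 3.58.1 (R 4.3.3) with a trend and a mean for each of 6 groups over 18 libraries. A gene entered the test with 10 or more normalized counts in 3 or more libraries, p-values were adjusted by Benjamini-Hochberg over these 17875 genes, and calls needed an adjusted p under 0.05. The members and lists were chosen with earlier results of these data known. The lists hold other C-type lectin receptors, SYK and CARD9 signalling genes, and markers of DCs, cDC1, macrophages, monocytes, neutrophils, mast cells and basophils, eosinophils and lymphoid cells. From the lists the text names some of the genes with the largest changes among those called, given a mean of 100 or more, together with markers near 0, the most abundant marker of each list and, for each receptor, the 2 genes with the highest r. *Fcer1g*, *Ddx3y*, *Xist* and the sum without *Hdc* were picked with their values known. As alternatives, the pseudocount was set to 0.5 or 5 and the filter to none or 100. Further ones were the same total in each library, TMM, edgeR 4.0.16 (quasi-likelihood), DESeq2 1.42.0, the compared groups alone, a replicate block, LPS groups pooled, each library left out in turn and, chosen after seeing the data, the nonconfined and confined libraries alone. Levels per kb use merged exons of GENCODE on GRCm39, which overlap the table's position for all 10 genes, and sequences were read from that genome with pysam 0.24.0. Plots were drawn with matplotlib 3.10.9. The pipeline was tested on simulated data. Filtering on intergenic signal needs mapped reads and was left out.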

Additional observations from a re-analysis of the deposited data

Results flagged for a closer look

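For 5 receptors the change with confinement differed between cPLA_2_ WT and cPLA_2_ KO cells by limma's test of the difference. Of all genes, 10.2% were called larger and 15.6% smaller in this test. The change in cPLA_2_ KO minus that in cPLA_2_ WT cells was -2.08 for *Clec4e*, -0.44 for *Clec5a* and -0.46 for *Clec4d*, so these rose less in cPLA_2_ KO cells, though for *Clec4d* the call was lost in 9 of 23 alternatives. It was 0.22 for *Clec7a*, which rose more there, and 0.30 for *Clec12a*, which fell less. By the same test 10 of 13 neutrophil and 4 of 9 mast cell and basophil markers were called larger too. Of 10 DC markers 6 were called smaller. From these lists 1, 2 and 0 markers went the other way, and their part was not tested. For *Clec4d* the change with LPS also differed between the labels, by -0.73, a call lost in 3 of 22 alternatives. *Pla2g4a* and *Ddx3y* go against these labels in the LPS libraries. *Clec4d* differed between the labels by 0.70 in nonconfined and by -0.02 in LPS libraries, so nearly all of the -0.73 is the nonconfined difference with its sign turned. In the test of the change with LPS 0.962% of all genes were called smaller, as were 6 of 7 eosinophil and 7 of 13 neutrophil markers. Of these markers 0 were called between the labels in LPS libraries, and their part was not tested.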

How the results depend on the processing

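For the 10 receptors in 10 comparisons, 1787 alternative values were computed, of which 1695 kept direction and call, 27 lost the call, 15 gained it and 50 turned direction. Of the 50, 4 were called in at least one of the fits. These came with the same total in each library: *Clec7a* with LPS at -0.29 with the cPLA_2_ WT label and -0.22 with the cPLA_2_ KO label, *Clec4n* with LPS at -0.02 with the cPLA_2_ KO label and *Clec5a* in confined cPLA_2_ WT cells against LPS libraries labelled cPLA_2_ WT at 0.27. The other 46 were called in neither fit. The same total also turned *Mrc1* with confinement in cPLA_2_ WT cells to -0.07, its difference between genotypes to 0.11 and *Clec10a* between nonconfined genotypes to -0.02. *Clec5a* in confined cPLA_2_ WT cells against LPS libraries labelled cPLA_2_ WT came to 0.06 with TMM and edgeR and 0.02 with DESeq2, and its difference between the labels in the change with LPS to -0.00 with TMM and edgeR. *Clec9a* with confinement in cPLA_2_ WT cells came to 0.02 with edgeR and 0.00 with DESeq2, and between the LPS labels to 0.17 with both. With each library left out, *Clec9a* with confinement in cPLA_2_ WT cells ranged from -0.21 to 0.21, the difference of *Cd209a* between genotypes from -0.04 to 0.54, *Clec5a* in confined cPLA_2_ WT cells against LPS libraries labelled cPLA_2_ WT from -0.03 to 0.00, and, between nonconfined genotypes, *Clec9a* from -0.05 to 0.44 and *Clec10a* from -0.03 to 0.06. Between the LPS labels the ranges were -0.14 to 0.12 for *Clec4e*, -0.15 to 0.12 for *Clec4d*, -0.07 to 0.09 for *Clec4n*, -1.05 to 0.62 for *Clec9a*, -0.04 to 0.21 for *Clec10a* and -0.25 to 0.14 for *Mrc1*. For the difference between the labels in the change with LPS they were -0.03 to 0.05 for *Clec5a*, -1.21 to 0.47 for *Clec9a*, -0.08 to 0.01 for *Clec12a* and -0.05 to 0.20 for *Clec10a*. The same total in each library left 3 receptors higher with LPS for either label. The count of receptors whose change with LPS was smaller with the cPLA_2_ KO label went from 1 to 0 with edgeR and to 0 with the compared groups alone, and ranged from 0 to 3 with each library left out. The count higher in confined cPLA_2_ WT cells than in LPS libraries labelled cPLA_2_ WT ranged from 3 to 6 with each library left out. The cause of these shifts was not tested. With a replicate block the difference of *Clec4e* between genotypes was -2.08 (limma adjusted p = 1.38e-09) and that of *Clec4d* -0.46 (0.042). Residuals of libraries with the same number did not correlate above 0.1 in all 3 pairs of any comparison. For *Clec9a*, with at most 38.4 normalized counts, few reads limit what can be detected, and its fold changes depend on the pseudocount.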
